A study of Mus musculus with 6 samples.

Results

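Protein folding in the endoplasmic reticulum (ER) and the integrated stress response were described through 30 genes in neutrophils that lacked Il1a or did not. The 30 genes were taken by symbol, matched to Ensembl identifiers, and make up 15 ER chaperones and folding enzymes, 4 genes of ER-associated degradation, 3 stress sensors, 2 transcription factors and 6 targets of the factors ATF4 and CHOP. All 30 were among the 54838 genes of the count tables and among the 11924 genes with enough counts to be tested. RNA was sequenced from neutrophils that had been sorted by flow cytometry out of mouse corneas 24 h into an infection with Pseudomonas aeruginosa strain PAO1. The tested mice lacked Il1a, which encodes the cytokine IL-1 alpha, and are labelled Il1a-/- (3 libraries, called knockout here). The controls are labelled WT (3 libraries). Both genotypes were infected and collected at the same time, so there was no uninfected group. The labels give no strain background, age, or count of mice per library. Libraries are numbered as biological replicates with no animals named, so p-values measure only how these libraries vary, which may be technical.

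The ER is the compartment in which secreted and membrane proteins fold, with the help of chaperones that hold unfolded chains and of enzymes that form disulfide bonds. When unfolded proteins build up there, the sensors ATF6, IRE1 (gene Ern1) and PERK (gene Eif2ak3) start the unfolded protein response. Cleaved ATF6, and XBP1 made from mRNA spliced by IRE1, raise transcription of chaperones and of degradation genes. PERK phosphorylates the translation factor eIF2 alpha, as do kinases that sense other stresses, which lowers protein synthesis overall while ATF4 is translated. ATF4 and its target CHOP (gene Ddit3) then raise genes of amino acid supply, redox balance and feedback. Mature neutrophils carry proteins made earlier in granules and also make cytokines at the site of infection.

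The promoter stretches below are shown because they carry the DNA elements that define these arms. They come from RefSeq windows on GRCm38.p6 that run from 250 bases before to 50 bases after each gene's start, and 27 of the 30 members matched by symbol. The windows of Manf, Atf6 and Hyou1 were not used here. Each stretch is written 5′ to 3′ on the strand of its gene, and the capitals mark the fixed letters of a match. The ER stress response element (ERSE), bound by ATF6 with NF-Y, was searched as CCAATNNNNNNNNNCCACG on both strands.
Hspa5: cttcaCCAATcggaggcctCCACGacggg
Pdia6: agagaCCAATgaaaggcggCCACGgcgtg
Dnajc3: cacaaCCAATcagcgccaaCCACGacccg
Calr: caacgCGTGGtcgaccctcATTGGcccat
Creld2: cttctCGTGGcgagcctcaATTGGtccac
Canx: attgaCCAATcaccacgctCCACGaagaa
Hsp90b1: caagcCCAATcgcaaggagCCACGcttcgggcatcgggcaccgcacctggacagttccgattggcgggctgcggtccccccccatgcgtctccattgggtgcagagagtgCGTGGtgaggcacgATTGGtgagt
Syvn1: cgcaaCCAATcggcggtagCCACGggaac
On GRCm38 these lie at chr2:34772020-34772048 (plus strand) for Hspa5, chr12:17266486-17266514 (plus) for Pdia6, chr14:118937822-118937850 (plus) for Dnajc3 and chr8:84847070-84847098 (minus) for Calr. The others lie at chr15:88819515-88819543 (plus) for Creld2, chr11:50325795-50325823 (minus) for Canx, chr10:86705528-86705661 (minus) for Hsp90b1 and chr19:6046527-6046555 (plus) for Syvn1. The Hspa5 stretch falls in the first exon of a longer Hspa5 model in GENCODE M21, and the other 7 overlap no exon of that annotation. The full element was present in 7 of the 13 chaperone promoters and in 1 of 4 degradation promoters, against 39 of 32851 promoters of all genes (0.119%). Hsp90b1 held 2 matches. The Calr and Creld2 matches and the second Hsp90b1 match lie on the opposite strand, so their capitals read as the element's reverse complement.

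The core of the amino acid response element (CARE), bound by ATF4 with C/EBP proteins, was searched as TGATGNAA on both strands.
Asns: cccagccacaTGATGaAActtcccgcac
Chac1: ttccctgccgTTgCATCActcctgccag
Herpud1: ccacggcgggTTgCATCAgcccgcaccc
These stretches lie on GRCm38 at chr6:7693215-7693242 (minus strand) for Asns, chr2:119351039-119351066 (plus) for Chac1 and chr8:94386307-94386334 (plus) for Herpud1. The Asns stretch falls in the first exon of its GENCODE M21 model, and the Chac1 and Herpud1 matches read as the reverse complement. The core was present in 3 of the 6 promoters of ATF4 and CHOP targets, with the match in Trib3 lying after its start, against 1304 of 32851 promoters (3.97%). No target promoter held the full ERSE and no chaperone promoter held the CARE core. The core of the unfolded protein response element, TGACGTGG, was in none of the 27 windows and in 222 of all promoters (0.676%). A match describes the letters only and shows no binding.

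The libraries carried the Il1a level of their labels, with 92, 174 and 118 Il1a counts in knockout libraries and 136694, 192428 and 272865 in WT libraries. Libraries held between 22855676 and 33626008 gene counts. The neutrophil label was met: 18 neutrophil markers summed to between 50297 and 54145 CPM (counts scaled to the normalized library size) in knockout libraries and between 53227 and 57818 CPM in WT. The 10 T and NK cell markers summed to at most 1.40 CPM in knockout and 1.68 CPM in WT libraries, with 7 of them at 0 everywhere. Of 12 plasma and B cell markers, which mark cells rich in ER, the sum lay between 66.3 and 96.1 CPM in knockout and between 74.9 and 81.8 CPM in WT, most of it Prdm1, which myeloid cells also express. Mzb1, Tnfrsf17 and Cd79b were at 0 in every library. Monocyte and macrophage markers summed to between 1051 and 1097 CPM in knockout and between 891 and 935 CPM in WT, with no overlap. Knockout replicate 2 was far from the other libraries in a principal component analysis (67.3 on the first axis, against -32.9 to 2.10). It was the highest library for 6 of the 30 genes and the lowest for 5. Eif2ak3, Sdf2l1, Pdia4, Ern1, Asns and Trib3 are also given without it.

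Hspa5, the ER Hsp70 chaperone BiP, was the most abundant of the 30 genes per length of transcript. It was at 1728 ± 153 TPM (counts per exonic length, scaled to a fixed total) in knockout and 2158 ± 239 TPM in WT (SD, n = 3 each). P4hb, a protein disulfide isomerase, was at 1413 ± 96.1 TPM in knockout and 1436 ± 96.5 TPM in WT. Both enzymes together dominated the chaperone list: Hspa5 made up 44.1% of its TPM in knockout and 47.4% in WT, and P4hb made up 36.1% in knockout and 31.5% in WT. Ppp1r15a, the GADD34 phosphatase subunit that reverses eIF2 alpha phosphorylation, stood between them at 1431 ± 69.9 TPM in knockout and 1452 ± 89.0 TPM in WT. It made up 89.5% of the TPM of the 6 ATF4 and CHOP targets in knockout and 90.3% in WT. The order of Ppp1r15a and P4hb was within their spread in both genotypes. Xbp1 followed at 605 ± 17.2 TPM in knockout and 636 ± 95.9 TPM in WT, and then Calr at 182 ± 17.8 TPM in knockout and 225 ± 35.2 TPM in WT. Sdf2l1 was the least abundant of the 15 folding genes, at 2.21 TPM in knockout and 0.677 TPM in WT. Pdia4 was at 5.23 TPM in knockout and 3.00 TPM in WT, and Hyou1 at 4.96 TPM in knockout and 5.79 TPM in WT.

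None of the 30 genes passed the test between genotypes over all genes (edgeR quasi-likelihood test, Benjamini-Hochberg adjusted p threshold 0.05), where 12 of 11924 genes did (0.101%), 3 of them lower in the knockout (0.0252%). The lowest adjusted p was 0.361, for Dnajb9. Over the same 11924 genes, limma-voom called 12 genes and none of the 30, and DESeq2 called 69 genes and 1 of the 30. Before adjustment, 9 of the 30 genes had p under 0.05 with lower values in the knockout, against 2.55% of all genes, and 1 had p under 0.05 with higher values, against 3.44%. All 3 knockout libraries lay below all 3 WT libraries for the same 9 genes, against 5.48% of all genes, and above them for 1, against 6.12%. The log2 fold change (knockout over WT) was negative for 23 of the 30, against 49.3% of all genes. The 30 genes were chosen with earlier results of these data known, so these contrasts with all genes only describe them and were not tested. The exact two-sided permutation p of a single gene cannot be below 0.1 with 3 libraries against 3. In bulk RNA, fewer cells with a transcript and less of it per cell cannot be told apart.

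Of the 15 chaperones and folding enzymes, 13 had a negative log2 fold change (49.3% of all genes). In every knockout library 7 lay below WT (5.48% of all genes). The 7 were Dnajc3, Manf, Dnajb9, Pdia6, Pdia3, Hspa5 and Calr, and each had an unadjusted p under 0.05 (2.55% of all genes, with lower values). The median log2 fold change of the 15 was -0.39, against 0.0045 over all tested genes. Pdia4 and Sdf2l1 were the genes with higher mean values in the knockout.

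**Figure D1:**
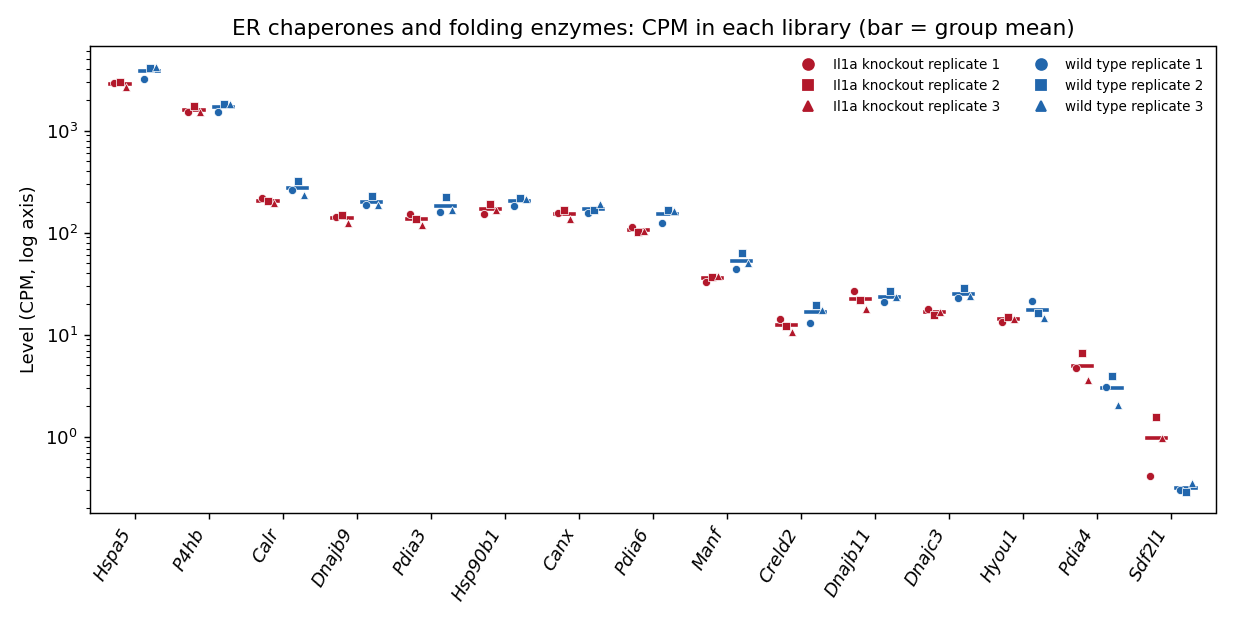
CPM (log axis) of the 15 ER chaperones and folding enzymes in each library, genes in order of abundance per length, with knockout libraries left of WT libraries and bars at group means. Knockout points lie below all WT points for 7 genes and above them for Sdf2l1 alone.

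Hspa5 (ENSMUSG00000026864, GRCm38 chromosome 2, 34771970 to 34777547, plus strand) had 2958, 3027 and 2671 CPM in knockout libraries, against 3183, 4116 and 4201 CPM in WT libraries. The knockout values were close together and all lay below WT, where replicate 1 was well under the other WT libraries and nearest to the knockout. The log2 fold change was -0.41 (SE 0.13, 95% interval -0.69 to -0.13, edgeR adjusted p = 0.597).

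Members of the DnaJ family hand unfolded chains to Hspa5. Dnajb9 (ERdj4, ENSMUSG00000014905, chromosome 12, 44205559 to 44210326, minus strand), which binds IRE1 and represses it, had 144, 149 and 125 CPM in knockout libraries, against 187, 227 and 189 CPM in WT. Every knockout library was lower, with a gap between the groups wider than the spread of the knockout libraries. Its log2 fold change was -0.53 (SE 0.13, 95% interval -0.81 to -0.24, edgeR adjusted p = 0.361). It was the only member called when DESeq2 replaced edgeR (adjusted p = 0.0337), and with no filter on low counts its adjusted p was 0.0443.

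Dnajc3 (p58IPK, ENSMUSG00000022136, chromosome 14, 118937976 to 118981697, plus strand), a co-chaperone that also inhibits eIF2 alpha kinases, had 17.7, 15.6 and 16.9 CPM in knockout libraries, against 22.9, 28.7 and 23.7 CPM in WT. The groups did not overlap and the log2 fold change was -0.59 (SE 0.16, edgeR adjusted p = 0.484). Dnajb11 (ERdj3), a co-chaperone that can be secreted with its client, had 26.7, 21.8 and 18.0 CPM in knockout libraries, against 20.8, 26.9 and 23.3 CPM in WT. The Dnajb11 groups overlapped, with knockout replicate 3 lowest and WT replicate 2 highest by a small margin, and with a log2 fold change of -0.09.

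Manf and Hyou1 act on the nucleotide cycle of Hspa5. Manf (ENSMUSG00000032575, chromosome 9, 106838312 to 106891979, minus strand), a secreted factor that binds Hspa5 and keeps its nucleotide in place, had 33.1, 36.4 and 38.0 CPM in knockout libraries, against 43.9, 62.7 and 50.5 CPM in WT. Its groups were separate, with a log2 fold change of -0.55 (SE 0.16, edgeR adjusted p = 0.557). Of the exonic bases of Manf, 9.25% lie in another gene model as well, where the counts of both may be incomplete. Hyou1 (GRP170), an exchange factor for Hspa5, had 13.3, 14.9 and 14.4 CPM in knockout libraries, against 21.3, 16.5 and 14.4 CPM in WT, where WT replicate 3 fell within the knockout range.

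Creld2, an ER protein with isomerase activity, had 14.2, 12.1 and 10.7 CPM in knockout libraries, against 12.9, 19.6 and 17.6 CPM in WT. WT replicate 1 lay inside the knockout range, and the log2 fold change was -0.43 (edgeR adjusted p = 0.841). Sdf2l1, which works with Dnajb11 and Hspa5, had 0.409, 1.57 and 0.961 CPM in knockout libraries, against 0.299, 0.290 and 0.354 CPM in WT. The groups were separate in the upward direction, with a log2 fold change of 1.63 (SE 0.65, 95% interval 0.19 to 3.07, edgeR adjusted p = 0.786). These values rest on 13, 51 and 22 counts in knockout libraries and 8, 9 and 11 counts in WT, and knockout replicate 2 was the highest, without which the log2 fold change was 1.09.

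The lectin chaperones Calr (calreticulin) and Canx (calnexin) hold glycoproteins and present them to Pdia3 (ERp57). Calr had 220, 205 and 196 CPM in knockout libraries, against 261, 320 and 235 CPM in WT, with a log2 fold change of -0.39 (edgeR adjusted p = 0.699). Pdia3 had 152, 136 and 119 CPM in knockout libraries, against 161, 224 and 167 CPM in WT, with a log2 fold change of -0.44 (edgeR adjusted p = 0.719). For both genes every knockout library was below every WT library, and WT replicate 2 was the highest. Canx had 155, 168 and 136 CPM in knockout libraries, against 156, 168 and 192 CPM in WT, and its groups overlapped with a log2 fold change of -0.17. Pdia3 lies 7.86 Mb from Il1a on chromosome 2, and Chac1, Trib3 and Hspa5 lie 9.95, 23.0 and 94.5 Mb from it. Whether chromosome 2 differs between the genotypes outside Il1a was not tested.

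Of the other disulfide isomerases, 1 had groups that did not overlap. Pdia6 (ENSMUSG00000020571, chromosome 12, 17266545 to 17284770, plus strand), which also acts on IRE1, had 114.6, 102.6 and 102.9 CPM in knockout libraries, against 123.2, 168 and 162 CPM in WT. WT replicate 1 was much the lowest WT library but still lay above the knockout, and the log2 fold change was -0.50 (SE 0.14, edgeR adjusted p = 0.542). P4hb had 1530, 1735 and 1531 CPM in knockout libraries, against 1516, 1809 and 1847 CPM in WT, with overlap and a log2 fold change of -0.11 (95% interval -0.37 to 0.15). Pdia4 (ERp72) had 4.71, 6.57 and 3.58 CPM in knockout libraries, against 3.07, 3.90 and 2.06 CPM in WT. The Pdia4 groups overlapped through WT replicate 2, and the log2 fold change was 0.72 (95% interval -0.02 to 1.47, edgeR adjusted p = 0.841). Knockout replicate 2 was the highest, and without it the log2 fold change was 0.46. Hsp90b1 (GRP94), the ER Hsp90, had 152, 191 and 168 CPM in knockout libraries, against 184, 221 and 212 CPM in WT. It overlapped through knockout replicate 2, with a log2 fold change of -0.27, and 15.7% of its exonic bases are shared with other gene models.

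The 7 chaperone genes whose promoter held the full ERSE printed above all had negative log2 fold changes (49.3% of all genes). These lay between -0.59 and -0.17 with a median of -0.41. Of the 7 genes, Hspa5, Pdia6, Dnajc3 and Calr had knockout libraries wholly below WT (5.48% of all genes), and Hsp90b1, Canx and Creld2 overlapped. Of the 6 chaperone genes with a promoter and no full match, 4 had negative values (49.3% of all genes) and the median was -0.10. Wholly below WT lay 2 of the 6, Dnajb9 and Pdia3 (5.48% of all genes). The positive values were those of Pdia4 (0.72, 64 to 213 counts per library) and Sdf2l1 (1.63, 8 to 51), the folding genes with the fewest counts. The negative values were those of Dnajb9 (-0.53), Pdia3 (-0.44), P4hb (-0.11) and Dnajb11 (-0.09). The median of -0.10 includes Pdia4 and Sdf2l1, and it was not taken without them. The split was made after the values were known and was not tested.

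**Figure D2:**
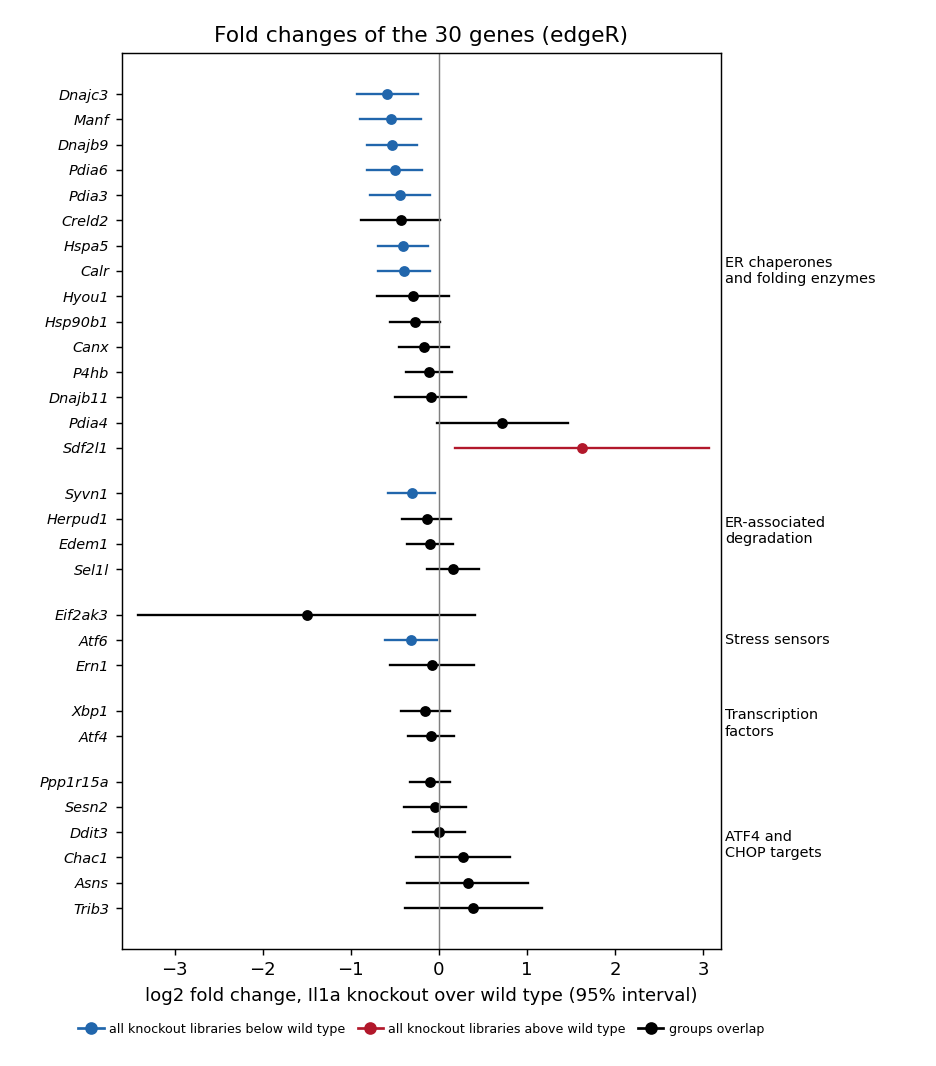
Log2 fold changes (knockout over WT) of the 30 genes with 95% intervals from edgeR, grouped by role and coloured by whether the knockout libraries all lie below WT, all lie above it or overlap it. Points for most chaperones sit left of 0, those for the ATF4 and CHOP targets sit on both sides, and Eif2ak3 and Sdf2l1 have the widest intervals.

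Among the 4 genes of ER-associated degradation, which returns misfolded proteins to the cytosol for destruction, 1 lay wholly below WT (5.48% of all genes). Syvn1 (HRD1), the ubiquitin ligase of the channel, had 65.0, 58.2 and 62.4 CPM in knockout libraries, against 70.9, 78.6 and 80.4 CPM in WT. Its log2 fold change was -0.31 (95% interval -0.57 to -0.04, edgeR adjusted p = 0.784), and it is the degradation gene with the full ERSE. Sel1l, the partner that holds Syvn1 stable, had 44.1, 51.1 and 49.2 CPM in knockout libraries, against 41.8, 39.8 and 47.7 CPM in WT, with overlap and a log2 fold change of 0.16. The difference between this pair of genes was not tested. Herpud1, which gathers the channel complex, had 159, 136 and 154 CPM in knockout libraries, against 146, 167 and 180 CPM in WT. Edem1, which takes mannose-trimmed glycoproteins to the channel, had 281, 245 and 225 CPM in knockout libraries, against 254, 277 and 273 CPM in WT. Both overlapped, with log2 fold changes of -0.14 and -0.10.

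The 3 sensors had negative log2 fold changes of unequal certainty. Atf6 had 55.8, 69.0 and 58.0 CPM in knockout libraries, against 81.7, 75.4 and 70.0 CPM in WT. The lowest WT library was just above the highest knockout library, and the log2 fold change was -0.31 (95% interval -0.61 to -0.02, edgeR adjusted p = 0.821). Ern1 had 10.4, 17.5 and 11.3 CPM in knockout libraries, against 14.0, 13.7 and 13.5 CPM in WT. The knockout libraries lay on both sides of the tight WT values, and the log2 fold change of -0.08 took the opposite sign without knockout replicate 1 or 3. Without knockout replicate 2, the highest of all libraries, the log2 fold change was -0.35.

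Eif2ak3 had the widest interval of all 30 genes. It had 4.62, 0.185 and 2.84 CPM in knockout libraries, against 10.2, 7.47 and 3.99 CPM in WT, from 147, 6 and 65 counts in knockout libraries and 272, 232 and 124 counts in WT. Knockout replicate 2 was near 0, and knockout replicate 1 was above WT replicate 3. The log2 fold change was -1.50 (95% interval -3.41 to 0.41, edgeR adjusted p = 0.900) and -0.95 without knockout replicate 2. With no filter on low counts it was called at an adjusted p of 7.54e-04, against 0.537 or more in the other alternatives that could test it. Of its exonic bases, 8.05% lie in another gene model as well.

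Both transcription factors overlapped between genotypes. Xbp1 had 748, 765 and 818 CPM in knockout libraries, against 874, 982 and 736 CPM in WT, where WT replicate 3 was the lowest of all 6. Its log2 fold change was -0.15, and a gene count does not separate its spliced from its unspliced form. Atf4 had 137, 163 and 166 CPM in knockout libraries, against 165, 162 and 170 CPM in WT, with a log2 fold change of -0.09. Since ATF4 is controlled in large part by translation, and ATF6 by cleavage, mRNA levels do not measure their activity.

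The 6 ATF4 and CHOP targets showed no gene with separate groups and none with an unadjusted p under 0.05, in either direction. Their log2 fold changes lay between -0.10 and 0.39 with a median of 0.14, and 2 of 6 were negative. Ppp1r15a had 1609, 1761 and 1617 CPM in knockout libraries, against 1773, 1693 and 1889 CPM in WT, with a log2 fold change of -0.10 (95% interval -0.33 to 0.13). Knockout replicate 2 lay within the WT range. Ddit3, the gene of CHOP, had 35.6, 35.5 and 40.1 CPM in knockout libraries, against 38.2, 38.8 and 33.8 CPM in WT. Its log2 fold change was below 0.01 in size, and the 95% interval ran from -0.29 to 0.30. Of the exonic bases of Ddit3, 10.9% are shared with other models.

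Chac1, which breaks down glutathione, had 21.3, 11.3 and 16.6 CPM in knockout libraries, against 15.9, 13.5 and 11.2 CPM in WT. Asns, which makes asparagine, had 4.90, 7.65 and 4.67 CPM in knockout libraries, against 6.25, 4.09 and 3.44 CPM in WT. Trib3, a pseudokinase that restrains ATF4 and CHOP, had 1.79, 2.99 and 2.05 CPM in knockout libraries, against 1.53, 1.84 and 1.83 CPM in WT. These 3 are the targets whose promoter window held the CARE core, and their log2 fold changes were 0.28, 0.33 and 0.39 with overlapping groups. Herpud1, the degradation gene with the core, had a log2 fold change of -0.14. Like the ERSE split, this grouping was made with the values known and was not tested. For Asns and Trib3, knockout replicate 2 was the highest of the 6 libraries, and without it their log2 fold changes were 0.06 and 0.13. For Chac1 knockout replicate 1 was the highest, and without it the log2 fold change was 0.04. Sesn2, a stress-induced inhibitor of mTORC1 signalling, had 108.5, 123.6 and 97.5 CPM in knockout libraries, against 134, 114 and 91.4 CPM in WT, with a log2 fold change of -0.04.

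**Figure D3:**
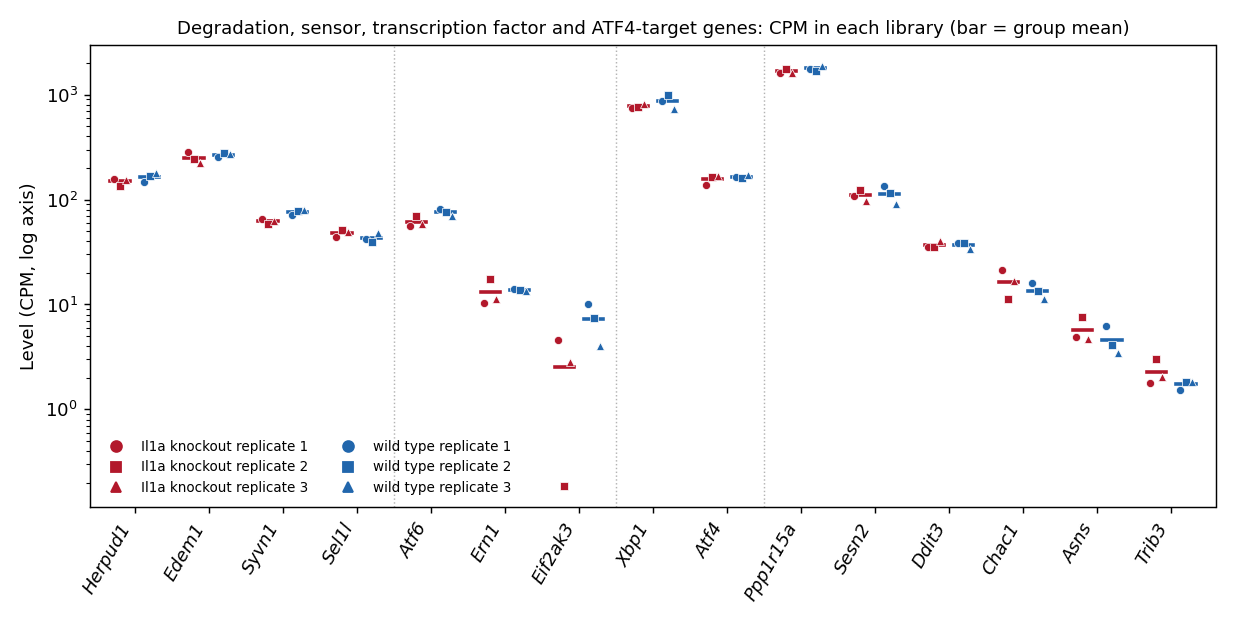
CPM (log axis) of the degradation genes, sensors, transcription factors and ATF4 and CHOP targets in each library, with knockout libraries left of WT libraries and bars at group means. Knockout points lie wholly below WT for Syvn1 and Atf6 and overlap for all other genes shown.

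Set side by side, the 15 folding genes had a median log2 fold change of -0.39 and the 6 ATF4 and CHOP targets one of 0.14, a difference of -0.54. Both lists were measured in the same libraries, and no p is given for the difference. The folding genes took 0.582%, 0.585% and 0.516% of all counts in knockout libraries, against 0.613%, 0.725% and 0.678% in WT. Every knockout library was below every WT library on this share. Hspa5 (61150 to 130614 counts per library) and P4hb (35064 to 57421) outweighed the rest, of which Calr had the most (4484 to 9941). The share of the 15 genes thus mainly follows Hspa5 and P4hb, and it was not taken without them. The targets took 0.187% ± 0.00848 of counts in knockout and 0.192% ± 0.0115 in WT (SD, n = 3 each), a difference smaller than the spread between libraries. In TPM the folding genes summed to 3919 ± 299 in knockout and 4556 ± 381 in WT, and the targets to 1600 ± 76.6 in knockout and 1608 ± 95.9 in WT (SD, n = 3 each).

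Libraries of the same genotype differed in these values. The median over the 15 folding genes of log2 CPM relative to each gene's mean was -0.14, -0.13 and -0.27 in knockout libraries, against -0.04, 0.31 and 0.18 in WT. WT replicate 1 was nearer to knockout replicates 1 and 2 than to the other WT libraries. For the targets the medians were -0.04, 0.10 and -0.01 in knockout libraries, against 0.09, -0.06 and -0.20 in WT, with overlap. Folding genes minus targets gave -0.10, -0.23 and -0.26 in knockout libraries, against -0.12, 0.37 and 0.38 in WT, so on this difference WT replicate 1 lay inside the knockout range. Among the 15 genes, the highest library was WT replicate 2 for 9 and the lowest was knockout replicate 3 for 7. With all libraries, 7 of the 15 folding genes had an unadjusted p under 0.05 with lower values (2.55% of all genes). Without WT replicate 2 such genes numbered 5 (1.46% of all genes), and the median of all 15 was -0.28. Without knockout replicate 3 they also numbered 5 (2.09% of all genes), and without WT replicate 1 they numbered 9 (3.02%).

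**Figure D4:**
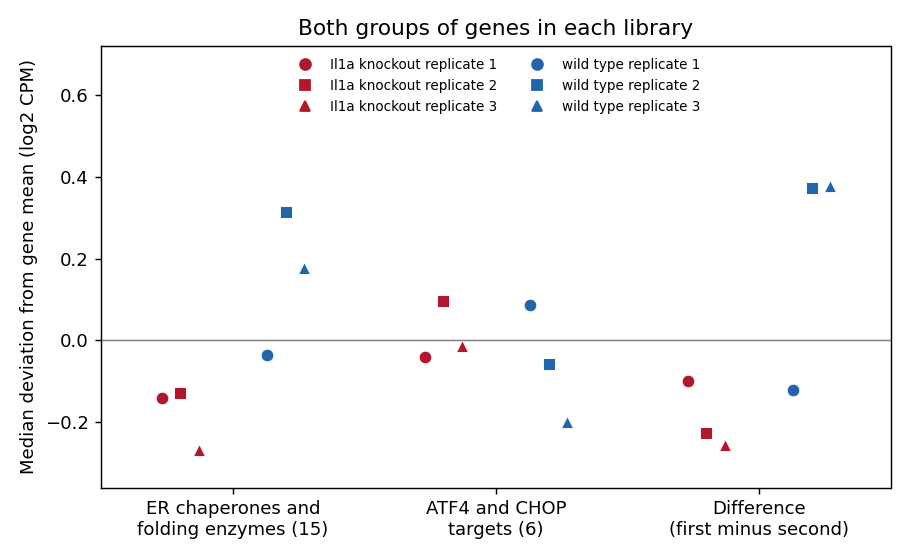
Median over genes of log2 CPM relative to each gene's mean, for the 15 folding genes and the 6 ATF4 and CHOP targets, in each library, with knockout libraries left of WT libraries. For the folding genes WT replicates 2 and 3 stand at 0.31 and 0.18 and WT replicate 1 at -0.04, above the knockout libraries, while the targets overlap.

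Beside the 30 genes, 7 other lists of the same pathways were read, and none of their genes passed the test over all genes with edgeR. DESeq2 called 1 of them (Gdf15), among 69 of 11924 genes. The machinery that threads new chains into the ER had the lowest median. Of its 21 tested genes 20 had negative log2 fold changes (49.3% of all genes), with a median of -0.37. An unadjusted p under 0.05 with lower values was found for 9 (2.55% of all genes), and 8 lay wholly below WT (5.48%). Ssr3, a subunit of the translocon-associated complex, was at 177 ± 11.5 CPM in knockout and 232 ± 34.6 CPM in WT (SD, n = 3 each, log2 fold change -0.39, edgeR adjusted p = 0.718). Srpr, the receptor for the signal recognition particle, was at 157 ± 7.26 CPM in knockout and 176 ± 19.4 CPM in WT, with overlap. The count of 9 became 1 of 21 without WT replicate 2, where the share over all genes became 1.46%, and 11 without knockout replicate 1, where that share became 4.86%. It was 6 without WT replicate 3 (2.94%), without knockout replicate 2 (2.79%) or with scaling by library size alone (1.49%).

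The lists for glycan-dependent quality control and for the rest of ER-associated degradation leaned the same way by smaller amounts. Quality control had 13 of 16 genes with negative values (49.3% of all genes) and a median of -0.13. An unadjusted p under 0.05 with lower values was found for 3 (2.55% of all genes), and 3 lay wholly below WT (5.48%). Lman2, a cargo lectin, was at 110 ± 9.71 CPM in knockout and 129 ± 9.11 CPM in WT, and Rpn1, a subunit of oligosaccharyltransferase, at 62.8 ± 6.44 CPM in knockout and 72.7 ± 7.58 CPM in WT. The degradation list had 19 of 23 tested genes with negative values (49.3% of all genes) and a median of -0.16. Of these 23 genes, 3 had an unadjusted p under 0.05 and lower values (2.55% of all genes), and 5 lay wholly below WT (5.48%). Selenok, a selenoprotein of the ER membrane, was at 246 ± 11.1 CPM in knockout and 279 ± 39.6 CPM in WT. Groups overlapped for Lman2, Rpn1 and Selenok. Selenos, chosen with its values known, was the gene of this list called with no filter (adjusted p = 0.017). It had 47.4, 44.4 and 45.3 CPM in knockout libraries, against 55.2, 83.1 and 72.8 CPM in WT, with every knockout library lower (log2 fold change -0.62, edgeR adjusted p = 0.411).

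The remaining lists had medians near that of all genes. The other ER folding and redox enzymes had 13 of 22 tested genes with negative values and a median of -0.05. An unadjusted p under 0.05 was found for 1 with lower values (2.55% of all genes) and 1 with higher values (3.44%). Ero1l, the oxidase that recharges disulfide isomerases, was at 612 ± 142 CPM in knockout and 631 ± 175 CPM in WT, and P4ha1, a prolyl hydroxylase subunit, at 156 ± 20.7 CPM in knockout and 148 ± 13.8 CPM in WT. The cytosolic heat shock list, which serves folding outside the ER, had 9 of 16 with negative values, none with an unadjusted p under 0.05 and a median of -0.02. Its Hspa8 was at 360 ± 67.7 CPM in knockout and 403 ± 70.9 CPM in WT, and Dnaja1 at 170 ± 36.1 CPM in knockout and 185 ± 21.3 CPM in WT.

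Other genes of stress sensing and eIF2 control had 15 of 23 with negative values (49.3% of all genes) and a median of -0.06. Of them 1 had an unadjusted p under 0.05 and lower values (2.55% of all genes). Every knockout library lay below WT for 5 (5.48% of all genes) and above it for 1 (6.12%). Bcl2l11, the death gene BIM, was at 774 ± 70.6 CPM in knockout and 663 ± 39.2 CPM in WT, with every knockout library higher (log2 fold change 0.22, edgeR adjusted p = 0.867). Tmbim6, a suppressor of ER stress death, was at 367 ± 19.3 CPM in knockout and 407 ± 19.9 CPM in WT, with every knockout library lower (log2 fold change -0.15, edgeR adjusted p = 0.943). The 25 tested genes among 37 other ATF4 and CHOP targets had 15 with negative values and a median of -0.03. Of them 2 had an unadjusted p under 0.05 with higher values (3.44% of all genes). Cebpb was at 3559 ± 26.0 CPM in knockout and 3742 ± 368 CPM in WT, and Slc7a11, the cystine importer, at 2624 ± 78.2 CPM in knockout and 2511 ± 379 CPM in WT, both with overlap.

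Gdf15, a stress-induced cytokine gene under ATF4 and CHOP that was chosen with its values known, had 18.3, 24.0 and 31.7 CPM in knockout libraries, against 7.78, 11.01 and 7.11 CPM in WT. Every knockout library was higher, with a log2 fold change of 1.51 (SE 0.24, edgeR adjusted p = 0.0702), the lowest adjusted p among the stress genes read here. It passed with no filter (adjusted p = 1.17e-09), with a filter at 5 CPM (0.0155), with DESeq2 (1.46e-06), with a replicate block (0.048) and without knockout replicate 1 (0.0307). It did not pass with limma-voom (0.0672), DESeq2 size factors alone (0.0709) or upper quartile scaling (0.0776). Library size alone (0.0804) and summed strand columns (0.0803) did not pass it either. Without the other libraries in turn its adjusted p lay between 0.0952 and 0.410.

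**Figure D5:**
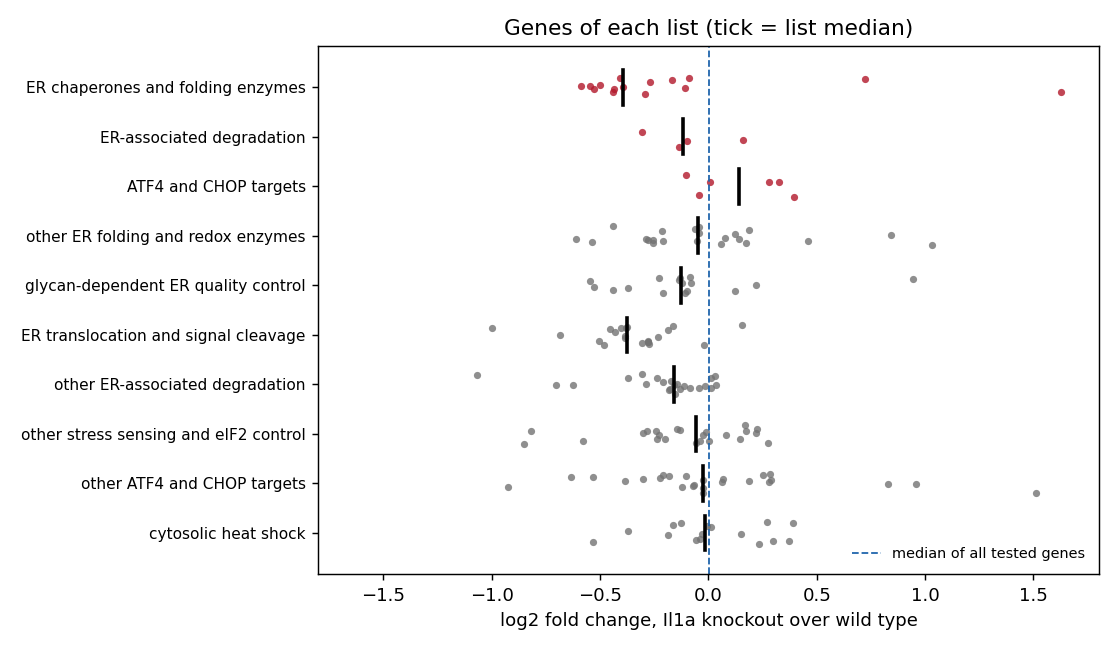
Log2 fold changes (knockout over WT) of every tested gene in 3 of the member lists (red) and the 7 other pathway lists (grey), 1 point per gene, with list medians marked. The chaperone and ER translocation lists have medians of -0.39 and -0.37, and the other lists lie nearer to 0.

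Macrophage markers had higher values in the knockout beside these results, though none passed the test over all genes. Of 17 tested markers 15 had positive log2 fold changes (6042 of 11924 over all genes), and the median was 1.23. With higher values, 9 had an unadjusted p under 0.05 (3.44% of all genes), and 8 had every knockout library above WT (6.12% of all genes). Lyve1 ran the other way, at 0.220 CPM in knockout and 2.08 CPM in WT (log2 fold change -3.24, edgeR adjusted p = 0.380). Cd68 was at 348 ± 24.9 CPM in knockout and 308 ± 26.5 CPM in WT, and Lyz2 at 334 ± 35.98 CPM in knockout and 293 ± 7.11 CPM in WT. None of the 18 markers was at 0 in all libraries. Cd68 and Lyz2 are also expressed by neutrophils. The part of other cells in the lower values of the folding genes, or in the higher values of Gdf15, was not tested. Among 18 neutrophil markers, 14 had negative log2 fold changes, the median of all 18 was -0.06, and no marker had separate groups. Of them 2 (Retnlg and Cd177) had an unadjusted p under 0.05 with lower values (2.55% of all genes). The 10 corneal epithelium markers, of which 7 of 8 tested were negative (median -0.46), summed to 51.4, 143 and 56.0 CPM in knockout libraries, against 55.1, 176 and 122 CPM in WT. The sums overlapped, and within WT replicate 1 was the lowest and replicate 2 the highest, as for the folding genes. Their part in the result was not tested. Sums overlapped for keratocyte and fibroblast markers (102 to 108.3 CPM in knockout and 107.7 to 119 CPM in WT), endothelium (33.7 to 44.98 CPM in knockout and 38.8 to 43.7 CPM in WT) and erythroid cells and platelets (3.55 to 38.9 CPM in knockout and 5.69 to 32.2 CPM in WT).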

How the data were processed

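Each library's table, as deposited by the authors, holds raw counts per gene: whole numbers in an unstranded column and in a pair of strand columns. Per the submitters' processing notes, FastQC 0.11.9, Trimmomatic 0.39 and STAR 2.7.8a were used with GRCm38 and mm10. Per the labels' protocols, the SMART-Seq v4 low-input kit was used. It does not mark strand, and between 49.9% and 50.1% of stranded counts fell in the same strand column, so reads of overlapping genes on opposite strands cannot be told apart. The release of the gene annotation is, in the sources used here, not given.

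The unstranded counts were used. Of 54838 genes, 54809 matched GENCODE M21, as did 30 of 30 members, 162 of 162 pathway entries and 94 of 94 marker entries. Where M21 gave a pair of Ddit3 models, the one with more exonic bases was used. Copies of members at 90% identity over at least 50% of a transcript were searched with blastn 2.17.0.

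The default filter of edgeR 4.0.16 left 11924 genes with 99.9% of counts, which were scaled by TMM and tested by the robust quasi-likelihood test for knockout over WT (R 4.3.3, limma 3.58.1), with Benjamini-Hochberg adjustment over all of them. CPM use TMM-adjusted library sizes, log2 CPM a prior count of 3, and TPM the exonic length in M21. The procedure was tested on simulated data. Reads carry no molecular tags, so counts hold amplification copies.

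The members and lists were chosen with earlier results of these data known. The naming rule covered all members, the 2 most abundant genes per other list and any called list gene, and 1 gene that it names is not reported here. Alternatives tried were each library left out, DESeq2 1.42.0 (its size factors alone and its test), limma-voom, scaling by the upper quartile or by library size alone, summed strand columns, a replicate block, and the filter either dropped or set at 5 CPM in 3 libraries. Figures were drawn with matplotlib 3.10.9.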

Additional observations from a re-analysis of the deposited data

How the results depend on the processing

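None of the 30 genes was called under 13 of the 15 alternatives, and the exceptions were 2 genes with no filter on low counts (Dnajb9 and Eif2ak3) and 1 with the DESeq2 test (Dnajb9). The cause was not tested. The number of genes called in all was 12 of 11924 tested. It became 185 of 24151 with no filter, 21 of 5739 with the filter at 5 CPM, 20 of 11924 with the replicate block and 69 of 11924 with the DESeq2 test. With a library left out it lay between 7 (without WT replicate 1 or 2, of 12664 or 12560 tested) and 24 (without knockout replicate 1, of 12663). The median of the folding genes kept its sign throughout, between -0.44 and -0.28 with a library left out. The median of the ATF4 and CHOP targets was 0.0204 with the filter at 5 CPM, which leaves 5 of the 6 genes, and lay between 0.0315 and 0.19 with a library left out. The direction turned for 4 genes whose fold change was near 0. Ddit3 was at -0.0044 with no filter and between -0.0568 and 0.0408 with a library left out. Sesn2 was at 0.0033 with library size alone and between -0.177 and 0.0804 with a library left out. With a library left out Dnajb11 lay between -0.255 and 0.0345 and Ern1 between -0.354 and 0.0575. Of the other pathway genes, Selenos passed with no filter (log2 fold change -0.64, adjusted p = 0.017). Scaling by library size alone moved the median of all genes to 0.06.

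Libraries with the same replicate number did not deviate together (correlations of 0.14, 0.06 and 0.0034 for numbers 1, 2 and 3), and the labels do not say whether a number marks a shared day or animal, so the numbers were not taken as pairs. No member was called with the replicate block. Knockout replicate 1 correlated best with the WT library of its own number, and knockout replicates 2 and 3 did not. Gdf15 passed under the block at an adjusted p of 0.048. Counts per library were few for Sdf2l1 (8 to 51), Trib3 (41 to 97), Pdia4 (64 to 213) and Eif2ak3 (6 to 272).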
